A study of Drosophila melanogaster with 17 samples.

Results

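The long noncoding RNA (lncRNA) genes expressed in sorted midgut cells of adult Drosophila were examined. They were the features of a deposited expression table whose FlyBase symbol starts with lncRNA: and whose mean level was at least 10 RPKM (reads scaled to the length of the gene and to the size of the library) in at least 1 of 3 wild type cell groups. Of 1795 lncRNA features among 17490 features in all, 47 met this rule. Because the wild type means chose the 47 genes, the levels of the wild type groups are given below as a description with no test. The only comparison tested is that of libraries labelled as overexpressing Sox100B with libraries labelled as depleted of it, which the rule did not use.

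LncRNAs are transcripts with no long open reading frame, most of them made by RNA polymerase II like messenger RNAs. Some act in the nucleus by holding proteins at chromatin or in nuclear bodies, some act through the act of transcription near other genes, and for most no function is known. In the Drosophila midgut, intestinal stem cells and their early daughters (progenitors) renew the absorptive enterocytes (EC) and the hormone-secreting enteroendocrine cells (EE). Sox100B is a SoxE family transcription factor that is expressed in midgut progenitors.

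The 17 RNA sequencing libraries were each made from about 10000 GFP-labelled cells sorted at day 3 of the adult stage, with RNA amplification. Wild type libraries came from EE (n = 3), EC (n = 3) and progenitors titled ESG (n = 5). The other libraries came from progenitors with RNA interference against Sox100B (Sox100B-RNAi, n = 3) or labelled as overexpressing Sox100B (Sox100B-OE, n = 3). The paper's methods name ProsV1-Gal4 for EE, esg-Gal4 for progenitors and Myo31DF-Gal4 for EC as the drivers behind its profiles of these cell types. They do not say that those profiles are these libraries, and they do not describe the Sox100B libraries. The esg driver labels stem cells and enteroblasts together, and the driver of the Sox100B transgenes is not given in the sources used here. The source name of the EC libraries says enteroblast while their titles say EC, and here they are named libraries labelled EC. The labels do not say whether replicates came from separate animals, so the p-values below measure only the spread between these libraries. In sorted bulk samples, fewer cells of a type and less RNA per cell cannot be told apart.

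Depth, as implied by the steps between low values, was 17.3 to 59.5 M reads a library. The summed level of 6 EE markers was 66592 to 80542 RPKM in EE against 630 to 13484 RPKM in the other 14 libraries. The summed level of 5 EC markers was 237 to 761 RPKM in the libraries labelled EC, and it overlapped that of EE at 96.5 to 333 RPKM. The summed level of 4 progenitor markers, Sox100B among them, was 103 to 243 RPKM in wild type progenitors, 12.1 to 19.3 RPKM in EE and 72.7 to 127 RPKM in the libraries labelled EC. Visceral muscle markers summed to at most 4.53 RPKM in any library. Sox100B itself was 20.3 to 34.4 RPKM in Sox100B-RNAi and 85.5 to 144 RPKM in Sox100B-OE (log2 fold change 1.91 ± 0.28 SE, limma adjusted p = 0.0013). In wild type progenitors it was 77.3, 69.7, 97.9, 174 and 183 RPKM, so that the Sox100B-OE libraries lay within the wild type range and not above it, and the Sox100B-RNAi libraries lay below it. Sox100B-OE and Sox100B-RNAi are therefore used below as library labels, and a direction is that of the libraries labelled Sox100B-OE relative to those labelled Sox100B-RNAi. The share of implied reads that was listed under genes was 62.4 to 77.2% for the 11 wild type libraries, against 94.5 to 95.1% for the other 6. Genotype and the way reads were listed cannot be told apart between these sets, so their levels are only set side by side.

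Most of the 47 lncRNA genes were short and highest in EE. Their median exonic length was 683 bases, against 1760 bases for the 4191 protein-coding genes that met the same minimum level, and 32 had a single exon. The longest was Hsromega with 21710 exonic bases and the shortest was CR40469 with 214. The genes lay on chromosome arms X (13 genes), 3L (11), 3R (10), 2R (9) and 2L (4), which put 27.7% of them on X against 15.3% of the protein-coding genes. By position, 27 shared no exonic base with another gene and lay in no intron, 11 lay within an intron of another gene (9 of these on the strand opposite to the host) and 9 shared exonic bases with another gene. For those 9, whose values may hold reads of the overlapping gene, the assignment of reads is uncertain.

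The mean level was highest in EE for 27 of the 47 genes (57.4%), in progenitors for 14 (29.8%) and in the libraries labelled EC for 6 (12.8%). The same shares among the protein-coding genes were 41.3, 37.3 and 21.4%. The lncRNA genes also reached the minimum in fewer groups. A mean of at least 10 RPKM was reached in a single group by 29 lncRNA genes (61.7%), of which 16 did so in EE, 8 in progenitors and 5 in the libraries labelled EC, and in all 3 groups by 12 (25.5%). Among protein-coding genes these shares were 26.5% for a single group and 53.5% for all 3. The lncRNA genes had a lower median level in their highest group (18.6 RPKM against 30.5 RPKM), and the shares were not matched for level.

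**Figure D1:**
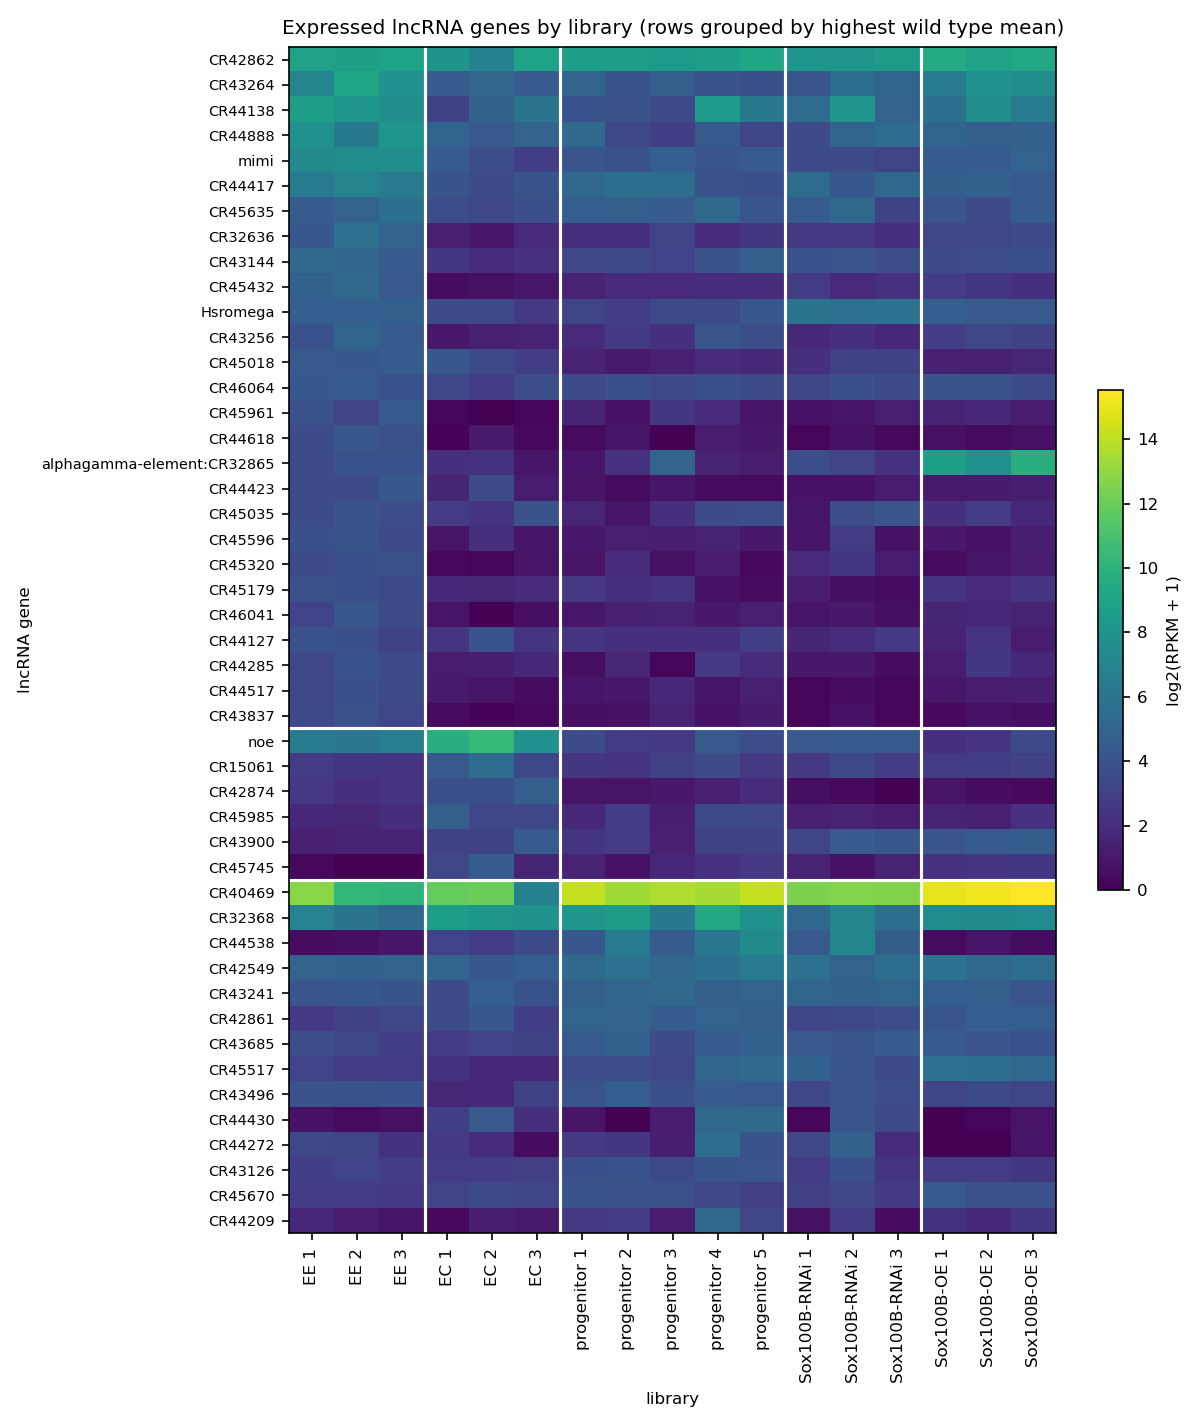
Level of each of the 47 lncRNA genes (rows, grouped by the wild type group with the highest mean and ordered by that mean) in each of the 17 libraries (columns), coloured by log2(RPKM + 1). The 27 genes at the top were highest in EE, the next 6 in the libraries labelled EC and the last 14 in progenitors, and CR40469 was the brightest row in every library except EC replicate 3.

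CR40469, a gene of 214 bases at X:122493-122706 on the plus strand (BDGP6), had the highest level of the 47 in every library except replicate 3 of those labelled EC. Its RPKM was 18297, 10272, 12803, 11498 and 18055 in the progenitor libraries. It was 6990, 1227 and 1160 in EE and 3732, 4217 and 112 in the libraries labelled EC. The progenitor libraries were all above the others, and both differentiated groups held 1 library far from its fellows. It made up 85.0 to 94.2% of the summed RPKM of the 47 genes in progenitors, 34.3 to 76.7% in EE and 7.66 to 66.3% in the libraries labelled EC. The log2 difference was -2.68 ± 0.54 (SE) for EE against progenitors and -3.51 ± 0.96 for EC against progenitors, and EE and EC overlapped.

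In EE, CR42862, CR43264, CR44138 and CR44888 followed CR40469, with means of 470.5 ± 35.8, 311 ± 234, 293 ± 101 and 193 ± 102 RPKM (SD, n = 3). CR42862 (3L:224106-230964) shares exonic bases on the same strand with CG33229 and was as high in progenitors (423 ± 82.2 RPKM, n = 5), so it did not separate these groups. CR43264 (X:5831898-5832215, in an intron of CG15765 on the opposite strand) was 128, 576 and 231 RPKM in EE, 12.8 to 29.4 RPKM in progenitors and 21.2 to 33.8 RPKM in the libraries labelled EC. Its EE libraries lay above all other wild type libraries but differed widely among themselves. CR44888 (X:15497523-15497862) lies in an intron of Gmap, which encodes a Golgi microtubule-associated protein, on the opposite strand. It was 231, 77.5 and 271 RPKM in EE against 6.42 to 39.3 RPKM in progenitors. The host Gmap was also highest in EE, at 85.9 to 107 RPKM. It was 25.2 to 54.2 RPKM in progenitors and 23.2 to 54.3 RPKM in the libraries labelled EC.

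The gene mimi (3R:23983503-23985065) was 159, 182 and 203 RPKM in EE. It was 13.3 to 24.3 RPKM in progenitors and 6.28 to 21.8 RPKM in the libraries labelled EC, so that the EE libraries stood well clear of both. Its log2 difference was 3.26 ± 0.21 (SE) for EE against progenitors and 3.82 ± 0.40 for EE against EC. It shares exonic bases on the same strand with another gene. CR44138 (3R:13376903-13377395) was also high in EE, at 397, 286 and 196 RPKM, but its progenitor libraries ran from 10.7 to 318 RPKM and overlapped the EE range. It lies in an intron of CG9813 on the opposite strand. CG9813 was 12.3 to 15.3 RPKM in EE, 2.06 to 2.79 RPKM in EC and 1.43 to 9.45 RPKM in progenitors. In progenitors both genes were highest in replicate 4. Reads of the unspliced host would also fall on CR44138 if the strand was not kept.

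Against the libraries labelled EC, the largest differences of EE were those of CR45432, mimi and CR45961. CR45432 (3L:21301477-21302159) was 18.9 to 34.7 RPKM in EE, 0.437 to 0.985 RPKM in EC and 1.85 to 3.04 RPKM in progenitors. It shares 54.9% of its exonic bases with CG11309 on the opposite strand, and CG11309 had the same order of means, 11.5 RPKM in EE, 1.47 RPKM in EC and 2.66 RPKM in progenitors, so the reads of these genes may not be told apart. CR45961 (3L:22756796-22757328) lies in an intron of SPoCk, a calcium and manganese transporting ATPase of the secretory pathway, on the same strand. It was 7.97 to 20.4 RPKM in EE and 0.0722 to 0.189 RPKM in EC, where it rested on 1 to 6 implied reads per library. The log2 differences on the log2(RPKM + 1) scale were 4.03 ± 0.28 (SE) for CR45432 and 3.67 ± 0.31 for CR45961.

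Hsromega encodes the heat shock RNA omega, a nuclear transcript that gathers heterogeneous nuclear ribonucleoproteins into omega speckles. Its RPKM was 24.2, 24.2 and 24.6 in EE, 10.6, 9.84 and 5.04 in the libraries labelled EC and 8.53, 6.0, 10.3, 10.4 and 17.5 in progenitors. The EE libraries lay above all other wild type libraries, while EC and progenitors overlapped. Its log2 difference was 1.21 ± 0.27 (SE) for EE against progenitors. The difference between EC and progenitors (-0.27 ± 0.34) changed sign under median-of-ratios scaling and under quantile normalization.

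The libraries labelled EC had a single lncRNA that was far above the other groups, noe (3L:17400272-17401348, minus strand). It lies in an intron of blot, which encodes a transporter of the neurotransmitter symporter family, on the same strand, so reads from the unspliced host would also fall on it. The level of noe was 904, 1346 and 232 RPKM in EC, 78.3, 70.1 and 99.8 RPKM in EE and 11, 5.76, 5.3, 18.8 and 12.3 RPKM in progenitors. The 3 groups did not overlap, and their order was EC, EE, progenitors. The log2 difference was 5.96 ± 0.55 (SE) for EC against progenitors and -2.99 ± 0.58 for EE against EC. The host blot was 0.920 to 1.38 RPKM in EC, 1.72 to 3.19 RPKM in EE and 0.360 to 1.10 RPKM in progenitors, far under noe in every wild type library.

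CR42874 (2L:1989450-1990894), near the odorant-binding protein gene Obp22a, was 12.9, 12.9 and 24.5 RPKM in EC, 3.21 to 4.89 RPKM in EE and 0.730 to 2.87 RPKM in progenitors. CR45018 (X:13304005-13308004), which shares exonic bases with the inositol trisphosphate kinase gene IP3K2, was 18.1, 10.2 and 5.93 RPKM in EC against 1.15 to 2.73 RPKM in progenitors. Both lay above progenitors in every EC library, with log2 differences of 2.88 ± 0.33 and 1.97 ± 0.33 (SE). CR45745 (3L:10978011-10978302) was 9.44, 21.5 and 2.02 RPKM in EC. In EE it rested on 3 implied reads in 1 library and 0 in the other two, and its log2 difference of -3.05 ± 0.61 for EE against EC depends on the pseudocount.

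Progenitors shared with EC the level of CR32368 (3L:7915437-7915846), with 76.7 to 657 RPKM in progenitors, 237 to 421 RPKM in EC and 39.6 to 118 RPKM in EE. Of the genes that were highest in progenitors, CR44538 (3L:10205620-10206401, plus strand) had the largest difference from EE. It was 18.2, 81.5, 22.0, 73.2 and 169 RPKM in progenitors, 7.57, 6.08 and 11.1 RPKM in the libraries labelled EC and 0.424, 0.581 and 0.918 RPKM in EE. The 3 groups did not overlap although the progenitor libraries were widely spread. Its log2 difference was -5.05 ± 0.65 (SE) for EE against progenitors and -2.58 ± 0.63 for EC against progenitors. CR42861 was 22.1 to 31.1 RPKM in progenitors and 4.92 to 9.29 RPKM in EE (log2 difference -1.81 ± 0.21), and CR45517 was 9.29 to 40.1 RPKM in progenitors and 2.49 to 3.90 RPKM in EC (-2.27 ± 0.46).

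Over all 47 genes, the libraries of EE and progenitors did not overlap for 31 (66.0%), of which 22 were higher and 9 lower in EE. Among all 4376 features with the same minimum level, 54.9% did not overlap (29.4% higher and 25.5% lower in EE), and for the 47 genes the shares were 46.8% higher and 19.1% lower. The median log2 difference was 1.27 for the lncRNA genes and 0.012 for all features. Between EE and EC, 36 genes (76.6%) did not overlap, 26 higher (55.3%) and 10 lower (21.3%) in EE, against a background of 61.4% (44.0% higher and 17.4% lower), and the medians were 1.23 and 0.47. Between EC and progenitors, 21 (44.7%) did not overlap, 4 higher (8.51%) and 17 lower (36.2%) in EC, against a background of 40.5% (9.19% higher and 31.3% lower), and the medians were -0.51 and -0.43. With progenitor replicates 4 and 5 alone, the median for EE against progenitors was 0.63, and with replicates 1 to 3 alone it was 1.33. Under median-of-ratios scaling the median of all features for EC against progenitors moved to 0.043 and that of the lncRNA genes to -0.065. The rule that chose the genes used these same libraries, so nothing beyond the description is read from the counts.

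**Figure D2:**
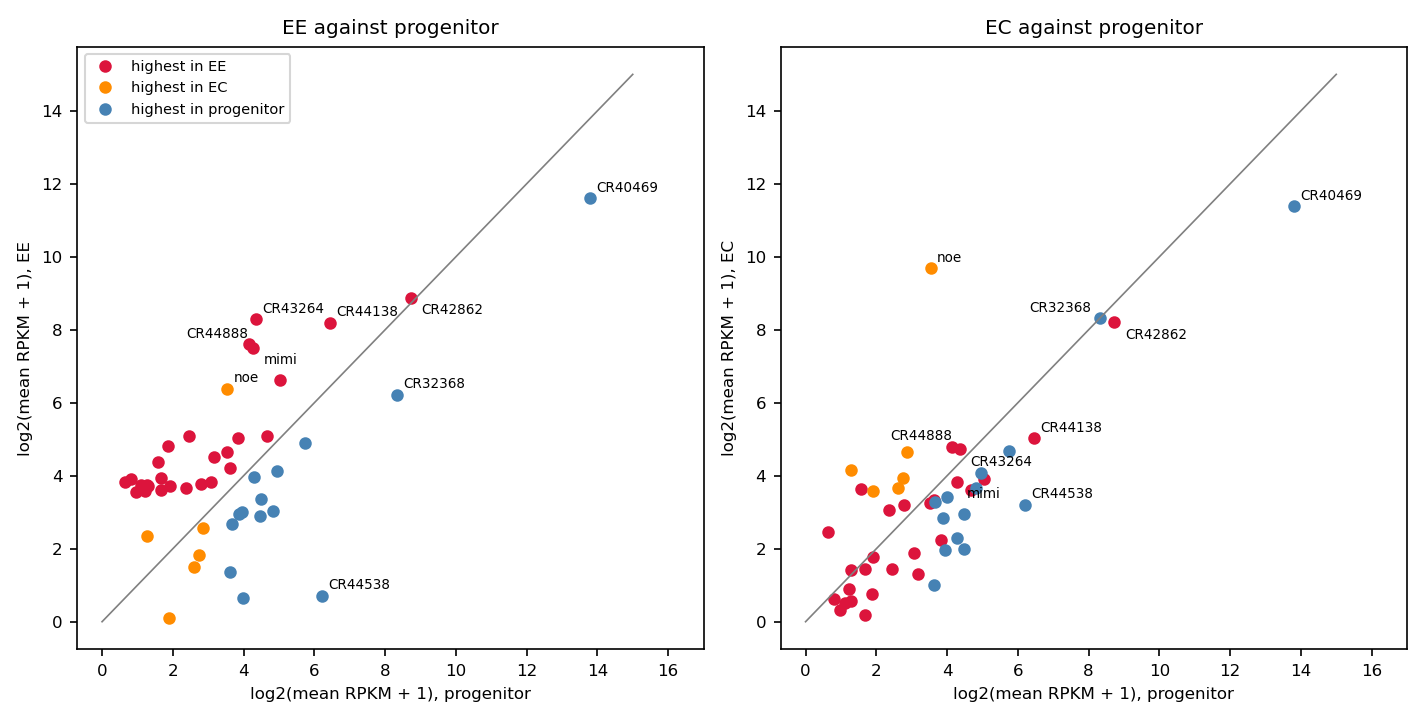
Mean level of the 47 lncRNA genes in EE (left) or in the libraries labelled EC (right) against progenitors, as log2 of the mean RPKM + 1, with 1 point per gene coloured by its highest wild type group and the grey line at equal levels. CR43264, CR44888 and mimi lie above the line in EE, noe lies above it in both panels, and CR40469 and CR44538 lie below it in both.

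The libraries labelled Sox100B-OE were then compared with those labelled Sox100B-RNAi. Sox100B was higher in the former, at a level within the range of wild type progenitors, as given above. Of the 47 genes, 43 reached 1 RPKM in no fewer than 3 of these 6 libraries and were tested. Of all features tested 16.0% were called (adjusted p under 0.01 and an absolute log2 fold change above 0.5), with 10.5% higher and 5.56% lower in Sox100B-OE. Of the 43 lncRNA genes 15 were called (34.9%), 10 higher (23.3%) and 5 lower (11.6%). Among the called genes, CR44538 and CR44272 passed the filter only through Sox100B-RNAi and CR44517 only through Sox100B-OE. The filter fixed the direction in which these could be called. Of the features tested that had a wild type mean of at least 10 RPKM, 14.0% were called, 8.24% higher and 5.77% lower. Among all 217 lncRNA features tested, of which the 43 are a part, 30.4% were called, with 20.3% higher and 10.1% lower. At an unadjusted limma p under 0.05 there were 22 of the 43 lncRNA genes, and the same share over all features is not given here. The median log2 fold change was 0.32 over the 43 genes and -0.045 over all features tested.

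The number of calls depended on single libraries. It was 9 of 41 tested, 12 of 40 and 3 of 41 without Sox100B-RNAi replicate 1, 2 or 3. All features called in these fits were 1281 of 8670, 1259 of 8647 and 870 of 8626. Without Sox100B-OE replicate 1, 2 or 3 it was 5 of 41, 5 of 42 and 5 of 41. All features called there were 524 of 8431, 509 of 8419 and 529 of 8381. Without Sox100B-RNAi replicate 3 the share of lncRNA genes called was below that of all features. Hsromega, the alphagamma element and CR40469 were called in all 6 of these fits, and no called gene changed direction in any alternative run. Summed markers of other cells also differed between the groups. The EE markers were 1667 to 4033 RPKM in Sox100B-RNAi and 7973 to 13484 RPKM in Sox100B-OE, the EC markers 57.4 to 73.1 and 202 to 234 RPKM, and the visceral muscle markers 0.279 to 0.444 and 2.65 to 3.60 RPKM. Of these lists 3 of 6, 1 of 4 and 1 of 1 tested genes were called, with median log2 fold changes of 0.36, 1.68 and 1.32. The progenitor markers, Sox100B among them, summed to 77.6 to 102 RPKM in Sox100B-RNAi and 154 to 212 RPKM in Sox100B-OE. Of these, 1 of 4 was called, with a median log2 fold change of 0.67. The part of all these markers in the lncRNA results was not tested.

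**Figure D3:**
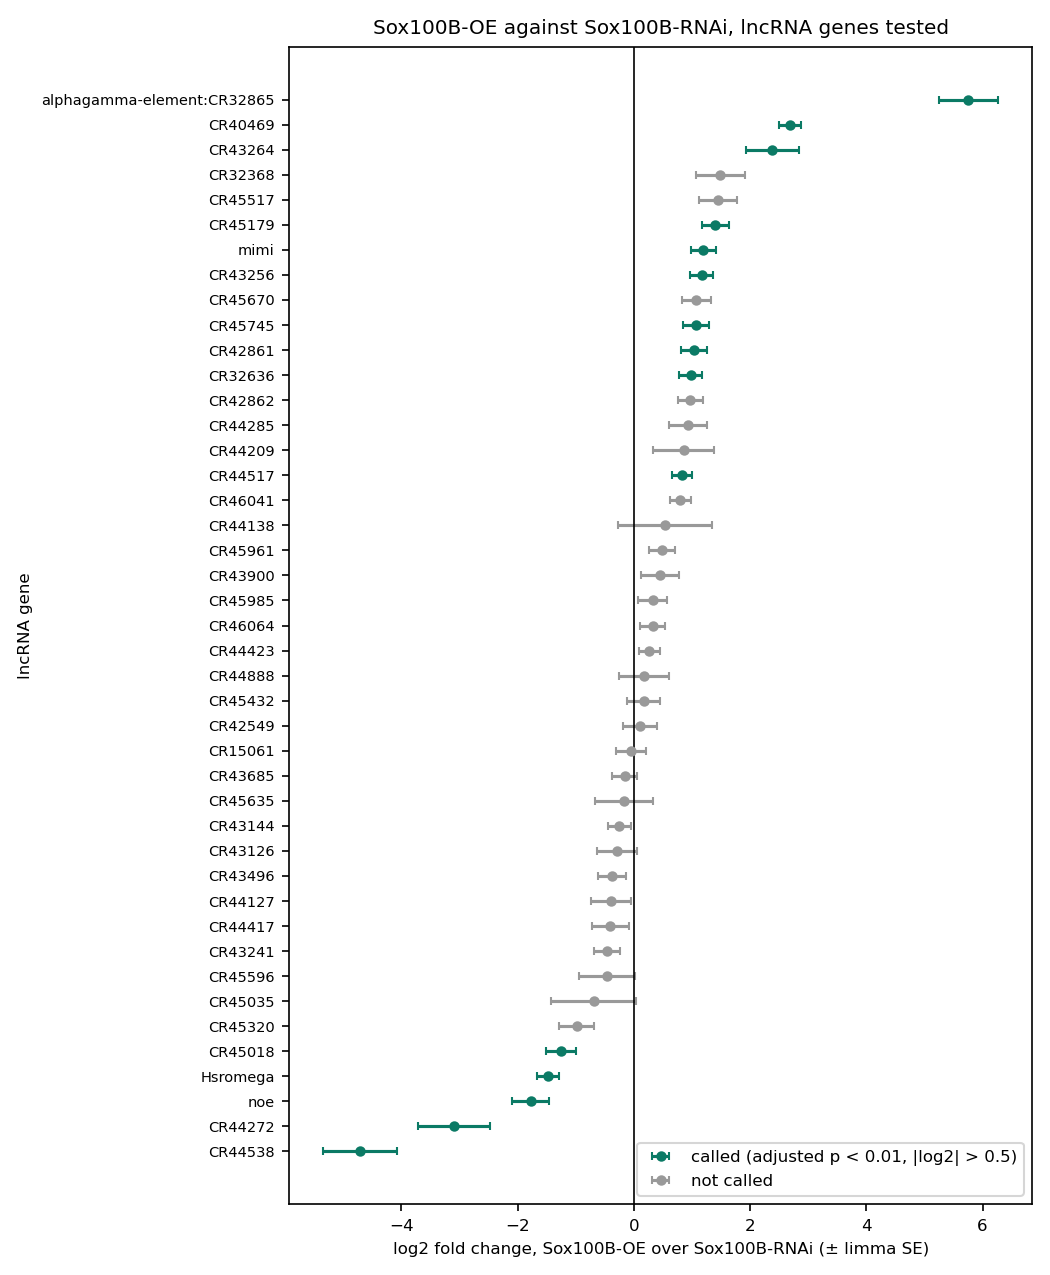
Log2 fold change of Sox100B-OE over Sox100B-RNAi with its limma standard error for the 43 lncRNA genes tested, on the log2(RPKM + 1) scale. The 15 called genes are green, from the alphagamma element at 5.75 to CR44538 at -4.71, and the genes not called are grey.

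The largest rise was that of the alphagamma element CR32865 (3R:12475336-12478267, minus strand). The alphagamma repeats lie among the Hsp70 genes of the 87C heat shock locus and are transcribed after heat shock, and part of the repeat resembles the start of the Hsp70 genes, so the assignment of reads among near-identical copies is uncertain. Its RPKM was 441, 230 and 849 in Sox100B-OE and 12.4, 7.97 and 3.58 in Sox100B-RNAi. All Sox100B-OE libraries were above all other 14 libraries, where the highest value was 29.4 RPKM in progenitor replicate 3. The log2 fold change was 5.75 ± 0.51 (SE, adjusted p = 9.7e-05), and the gene was called in all 17 alternative fits.

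The Hsp70 genes gave other values. Hsp70Bc, a heat-inducible chaperone gene, was 147, 81.3 and 153 RPKM in Sox100B-RNAi and 13.9, 33.8 and 37.4 RPKM in Sox100B-OE (log2 fold change -2.18 ± 0.40, adjusted p = 0.0039). Hsp70Ab, which shares exonic bases with a gene on the opposite strand, also fell (-1.88 ± 0.23). Hsp70Aa (0.11 ± 0.31) and Hsp70Bb (-0.28 ± 0.28) did not pass the test. Hsp70Ba and Hsp70Bbb were too low to be tested. Hsp70Ba, the coding gene nearest to the alphagamma element, was 1.49, 0.523 and 1.02 RPKM in Sox100B-RNAi. In Sox100B-OE it was 0.0939, 0.173 and 0.437 RPKM. Hsromega, whose transcription also rises with heat shock, was 61.1, 55.6 and 60.4 RPKM in Sox100B-RNAi and 23.8, 19.0 and 19.5 RPKM in Sox100B-OE. Its groups were far apart and each was narrow, with a log2 fold change of -1.47 ± 0.19 (SE, adjusted p = 6.6e-04). Wild type progenitors, at 6.0 to 17.5 RPKM, were below both groups, but their reads were listed differently, as given above. Of the omega speckle proteins matched (Hrb87F, Hrb98DE, sqd and nonA), 0 of 4 were called, with log2 fold changes from -0.18 to 0.40 and adjusted p of at least 0.14.

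CR40469 was 33192, 37503 and 47115 RPKM in Sox100B-OE and 5609, 6405 and 6092 RPKM in Sox100B-RNAi. The ratio of means was 6.51, and the log2 fold change was 2.69 ± 0.19 (SE, adjusted p = 3.0e-05). It made up 94.5 to 95.6% of the summed RPKM of the 47 genes in Sox100B-OE and 82.6 to 87.2% in Sox100B-RNAi. Wild type progenitors, at 10272 to 18297 RPKM, lay between the groups.

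Several genes that were high in EE rose as well. CR43264 was 85.2, 230 and 199 RPKM in Sox100B-OE and 16.5, 48.6 and 31.4 RPKM in Sox100B-RNAi (2.38 ± 0.46, adjusted p = 0.0053). The gene mimi was 22.0, 21.6 and 28.6 RPKM in Sox100B-OE and 10.5, 11.2 and 8.12 RPKM in Sox100B-RNAi (1.20 ± 0.21, adjusted p = 0.0035). In both cases the Sox100B-OE libraries did not overlap Sox100B-RNAi, and for mimi they stayed far below EE. CR45179 (3L:16689268-16697897) rose by 1.40 ± 0.23 (adjusted p = 0.0026) from a mean of 0.746 to 3.56 RPKM, and CR43256 (2R:5127249-5129296) rose by 1.16 ± 0.21 (adjusted p = 0.0035) from 2.73 to 7.41 RPKM. The other called rises were CR45745 (1.07), CR42861 (1.03), CR32636 (0.98) and CR44517 (0.83), with adjusted p from 0.0068 to 0.0098. CR45745, CR42861 and CR32636 were not called in any of the 6 fits that left out a library. CR43264 and mimi were called in 2 of these 6 fits, CR45179 in 3 and CR43256 in 1. CR44517 was tested in 3 of them and called in 1. It passed the filter only through the Sox100B-OE libraries, so it could be tested only as a rise. With no filter CR44517 was not called (limma adjusted p = 0.016).

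By their highest wild type group, 7 of the 25 EE-high genes tested rose and 2 fell, 2 of the 13 progenitor-high genes rose and 2 fell, and 1 of the 5 EC-high genes rose and 1 fell. Both progenitor-high falls, CR44538 and CR44272, could be tested only as falls, and CR44517 among the EE-high rises only as a rise. CR44888 and CR45432, high in EE by 11.5-fold and 10.1-fold over progenitors as ratios of means, gave log2 fold changes of 0.17 ± 0.43 and 0.17 ± 0.28 and were not called. Over all 43 genes tested 23.3% were called higher and 11.6% lower, against 10.5% and 5.56% of all features tested. The difference between the EE-high and the other genes was not tested, and no share of all EE-high features is set beside it.

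The largest fall was that of CR44538, the progenitor-high gene. It was 18.8, 136 and 23.1 RPKM in Sox100B-RNAi and 0.394, 0.866 and 0.402 RPKM in Sox100B-OE, where it rested on 5 to 10 implied reads per library. The log2 fold change was -4.71 ± 0.64 (SE, adjusted p = 8.6e-04). The Sox100B-OE libraries overlapped the range of EE (0.424 to 0.918 RPKM), and the Sox100B-RNAi libraries were within the range of wild type progenitors (18.2 to 169 RPKM). CR44272 (2R:7992196-7992567) was 8.79, 27.7 and 3.11 RPKM in Sox100B-RNAi and 0, 0 and 0.862 RPKM in Sox100B-OE, where 6 implied reads of 1 library carried it (-3.09 ± 0.61, adjusted p = 0.0059). It was not called in any of the 3 fits without a Sox100B-OE library. CR44538 and CR44272 reached 1 RPKM only in Sox100B-RNAi libraries. They passed the filter through that group alone and could be tested only as falls. With no filter neither was called (limma adjusted p = 0.027 and 0.070).

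The gene noe was 19.5, 21.0 and 20.1 RPKM in Sox100B-RNAi and 3.31, 4.19 and 9.60 RPKM in Sox100B-OE. The libraries labelled Sox100B-RNAi were close together and lay above every library labelled Sox100B-OE (-1.78 ± 0.32, adjusted p = 0.0038). The summed EC markers given above were, in contrast, higher in Sox100B-OE. Its host blot was 7.58, 13.0 and 2.41 RPKM in Sox100B-RNAi and 3.86, 2.94 and 4.39 RPKM in Sox100B-OE, and was not called (-0.66 ± 0.45, adjusted p = 0.31). CR45018 fell by 1.25 on the log2 scale (SE 0.26, adjusted p = 0.0074), from 3.52, 7.07 and 7.07 RPKM to 1.71, 1.57 and 2.18 RPKM. Of the 6 fits that left out a library, noe was called in 2 and CR45018 in 1.

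**Figure D4:**
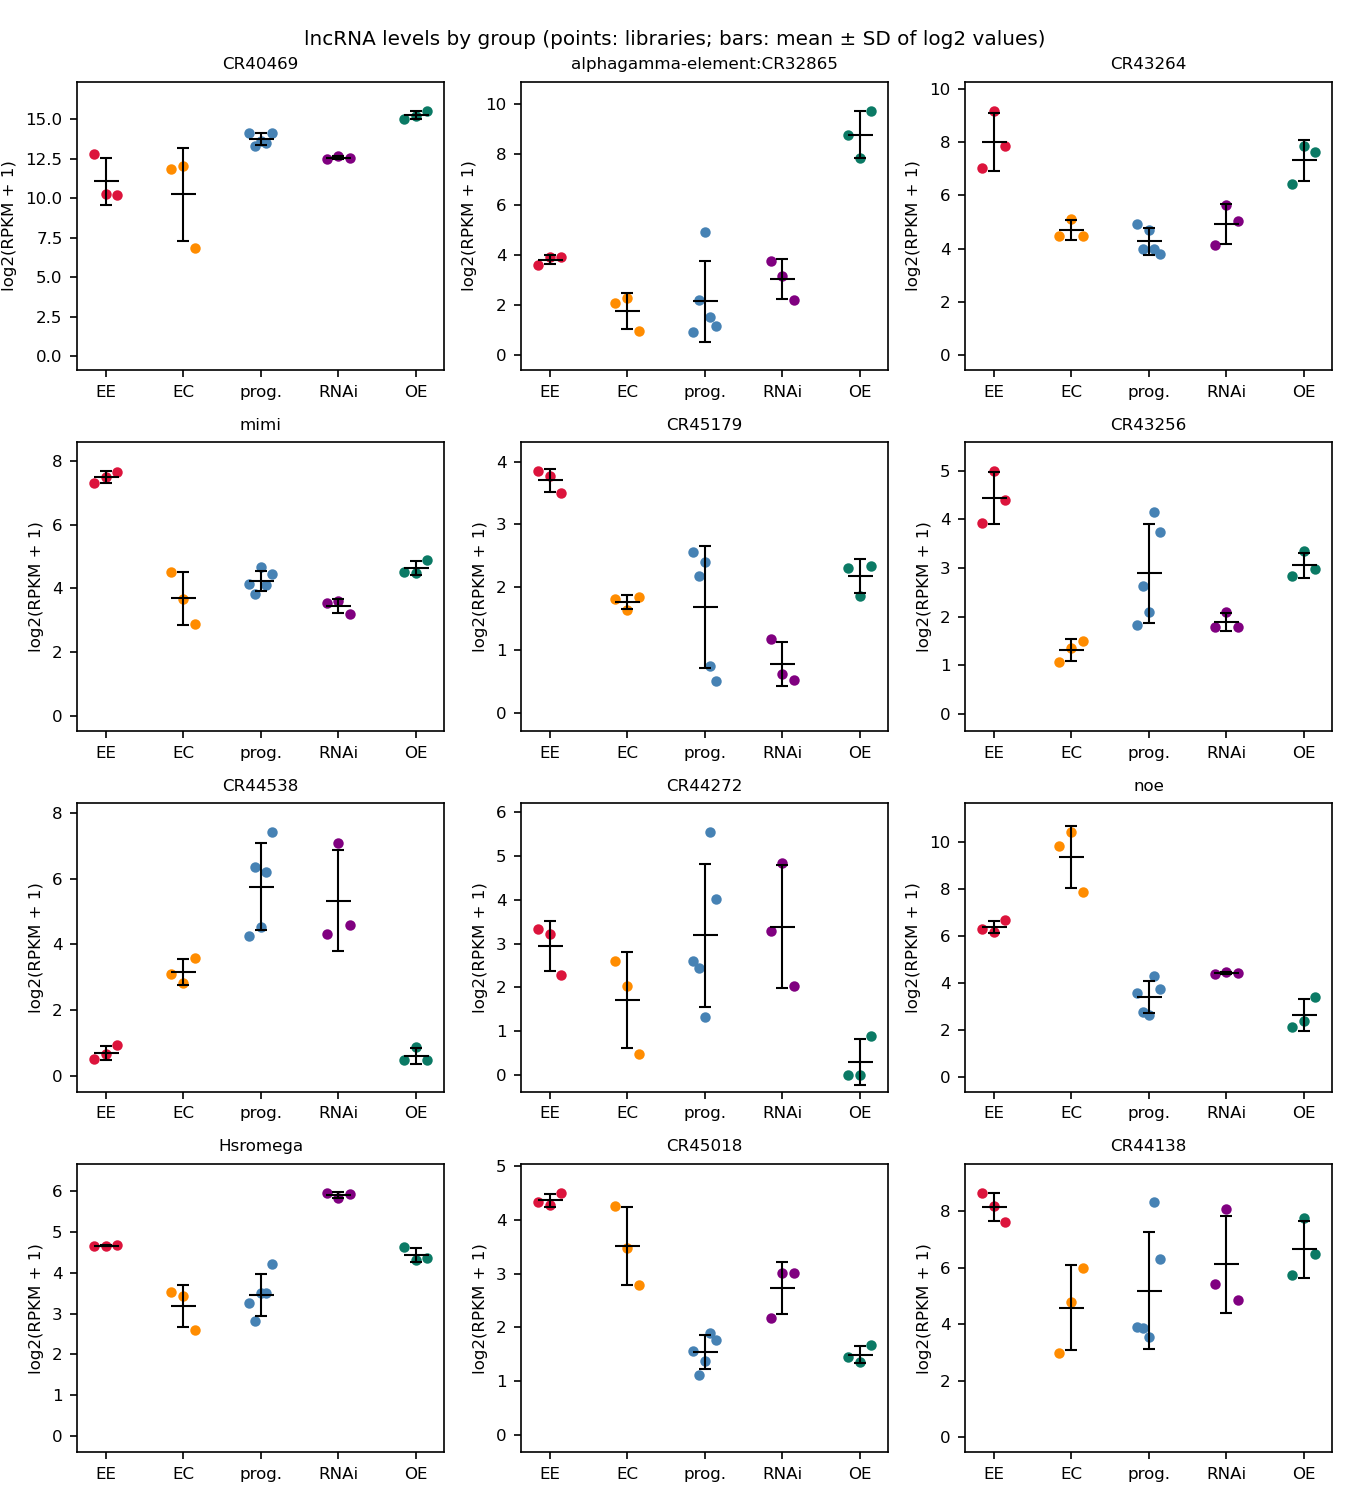
Levels of 12 lncRNA genes as log2(RPKM + 1) in EE, the libraries labelled EC, progenitors (prog.), Sox100B-RNAi (RNAi) and Sox100B-OE (OE), with 1 point per library and the mean ± SD of the log2 values in black. The alphagamma element CR32865 is above 7 in Sox100B-OE and under 5 elsewhere, CR44538 is under 1 in both EE and Sox100B-OE, and noe is highest in the libraries labelled EC.

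Of 36 lncRNA genes tested together with their host or nearest protein-coding gene, 5 had a called neighbour (13.9%), near the 16.0% called over all features. Of 12 called lncRNA genes whose host or nearest coding gene was also tested, 3 had a called neighbour and all 3 pairs moved the same way. CR44538 and its neighbour ect reached 1 RPKM only in Sox100B-RNAi, so both could be tested only as falls. CG17636, the neighbour of CR40469, reached 1 RPKM only in Sox100B-OE and could be tested only as a rise. Of 24 lncRNA genes not called, 2 had a called neighbour, and the values of both pairs had opposite signs. These were CR45517 (1.46 ± 0.33) with CG16756 (-2.01 ± 0.25), and CR44285 (0.93 ± 0.33) with CG1902 (-1.27 ± 0.21). The pair with the largest changes was CR44538 and ect, which lies 3783 bp away. The level of ect was 48.9, 51.2 and 51.0 RPKM in Sox100B-RNAi and 0.327, 0.569 and 0.700 RPKM in Sox100B-OE (-5.07 ± 0.19). In wild type, ect was 0.258 to 0.476 RPKM in EE, 2.56 to 10.6 RPKM in the libraries labelled EC and 5.58 to 44.2 RPKM in progenitors, the same order of groups as CR44538.

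CR45179 lies on the opposite strand in an intron of Lasp, which encodes an actin-binding LIM and SH3 domain protein. Lasp was 72.9, 58.0 and 65.2 RPKM in Sox100B-OE and 27.8, 23.1 and 22.5 RPKM in Sox100B-RNAi (1.38 ± 0.20, adjusted p = 0.0011). Their wild type levels differed in pattern, since CR45179 was 10.3 to 13.4 RPKM in EE and at most 4.88 RPKM in the other wild type libraries while Lasp was 14.2 to 33.1 RPKM across all of them with the groups overlapping. The third pair was CR40469 and CG17636, which lies 1664 bp away. CR45745 lies 2869 bp from klu, which encodes the zinc finger transcription factor klumpfuss, and klu gave 1.21 ± 0.29 with an adjusted p of 0.014 and was not called. Whether library preparation kept the strand is not given in the sources used here, so reads of a gene and of its partner on the opposite strand may not be told apart.

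**Figure D5:**
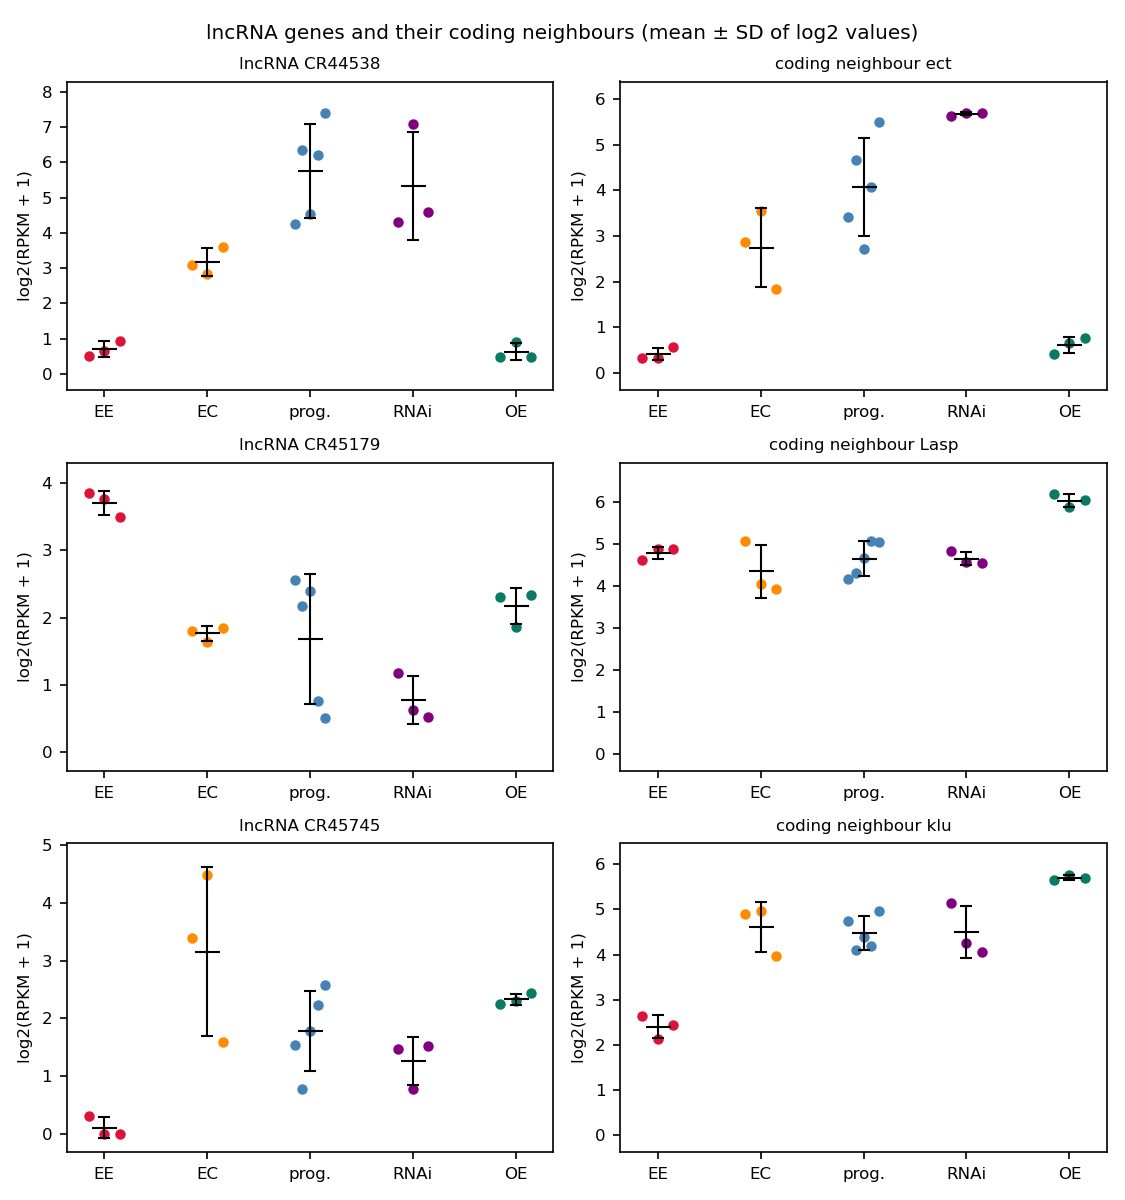
Levels of 3 lncRNA genes (left) and of a coding neighbour of each (right) as log2(RPKM + 1) in the 5 groups, with 1 point per library and the mean ± SD of the log2 values in black. CR44538 and ect are both low in EE and Sox100B-OE, whereas CR45179 is highest in EE and Lasp is not.

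CR45320 lies 117 bp from Fa2h, which encodes a fatty acid 2-hydroxylase. CR45320 was 10.8, 12.9 and 13.5 RPKM in EE and at most 2.84 RPKM in the other wild type libraries, and Fa2h was 235 to 318 RPKM in EE and at most 24.3 RPKM in the others. In Sox100B-OE against Sox100B-RNAi neither was called, with values of the same sign, log2 fold changes of -0.99 ± 0.31 and -1.07 ± 0.34 and adjusted p of 0.042 and 0.044.

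The remaining 28 genes tested gave log2 fold changes between -0.99 and 1.49 and were not called. CR32368 and CR45517 had the largest of these, 1.49 ± 0.42 (adjusted p = 0.029) and 1.46 ± 0.33 (adjusted p = 0.011), and neither overlapped between the groups. CR42874, CR43837, CR44430 and CR44618 were not tested. CR42874, CR43837 and CR44618 were under 1 RPKM in all 6 libraries. CR44430 was 0.150, 16.8 and 10.1 RPKM in Sox100B-RNAi and at most 0.790 RPKM in Sox100B-OE. The groups did not overlap for 23 of the 43 tested (53.5%), against 45.5% of all features tested.

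At the threshold of the rule, CR43837 (10.7 RPKM in EE) and CR45745 (11 RPKM in EC) were just inside and CR42868 (9.77 RPKM) and CR44663 (9.47 RPKM) just outside. The lncRNA genes were also more variable between replicates than the protein-coding genes, which were not matched to them for level or length. The median SD of log2(RPKM + 1) over replicates was 0.26 in EE, 0.48 in the libraries labelled EC, 0.50 in progenitors, 0.40 in Sox100B-RNAi and 0.27 in Sox100B-OE, against 0.20, 0.43, 0.34, 0.33 and 0.21 for protein-coding genes.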

How the data were processed

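The authors deposited 1 table of RPKM values with a column for each of the 17 libraries. The submitters' processing notes name STAR, featureCounts 1.6.3, DESeq2 and the build BDGP6, and the read total behind the RPKM is not given in the sources used here. Of 17490 features, 17215 had a position and exonic length in the BDGP6 annotation, and 1 missing in wild type libraries was dropped. Low values times exonic length were whole multiples of a step (within 0.05 for 98.2 to 98.8%), which gave the implied read totals. These describe depth only. Amplified reads carry no molecular identifiers.

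Sox100B-OE and Sox100B-RNAi were compared in R 4.3.3 with limma 3.58.1 (trend, 2-sided, Benjamini-Hochberg) on log2(RPKM + 1), which understates changes of low genes, for features at an RPKM of 1 or more in at least 3 of the 6 libraries. The thresholds were those the paper's methods give for other libraries. The DESeq2 count test named there was not used because RPKM values are not counts. On data simulated with 4-fold changes and a dispersion of 0.05 for every gene, 199 of 200 changed genes were called, with 8 false calls. Smaller changes and wider spreads, such as those of several called lncRNA genes, were not simulated. Wild type groups were described by their values, with limma standard errors and no p.

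The members, lists and tests were chosen with earlier results of these data known. Named genes are those with a name, the 5 highest per wild type group, the 3 largest rises and falls per pair of wild type groups, up to 6 called in each direction and those at the threshold. CR32636, CR44517, CR45320, Fa2h, CR44145, CR44209, CR44285, CG1902, CG16756 and CG17636 were chosen after their values were seen. The lists used were omega speckle proteins and markers of EE, EC, progenitors and visceral muscle. Hemocyte, fat body, trachea and male germline markers summed to at most 5.69, 3.23, 0.182 and 0.594 RPKM in any library. Alternatives were another pseudocount, filter, scaling, threshold or fit, a replicate block, array weights, leaving out each library and, added after seeing the data, progenitor replicates 1 to 3 or 4 and 5 alone.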

Additional observations from a re-analysis of the deposited data

Results flagged for a closer look

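In the 5 progenitor libraries, 5 of the 47 lncRNA genes had a library apart from the others by Dixon's criterion at its 95% critical value of 0.710, which chance gives in about 1 of 20 groups. The alphagamma element CR32865 was 29.4 RPKM in replicate 3 and at most 3.55 RPKM in the others. In replicate 4, CR44138 was 318 RPKM against at most 78.0 RPKM and CR44209 was 36.0 RPKM against at most 8.79 RPKM. CR44127 was 6.26 RPKM in replicate 5 against at most 4.21 RPKM, and CR45432 was lowest in replicate 1, at 1.85 RPKM against at least 2.76 RPKM.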

How the results depend on the processing

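The count of lncRNA genes called between Sox100B-OE and Sox100B-RNAi (15, with 10 higher and 5 lower) was 2 (1 and 1) with no filter, 8 (5 and 3) in 1 fit of all 17 libraries and 9 (6 and 3) with only nuclear genes that share no exonic base. The lncRNA genes tested in these runs were 47, 43 and 37. All features called in them were 654 of 17489, 1643 of 8848 and 993 of 5338. With no filter and in the fit of all 17 libraries, the share of lncRNA genes called was near that of all features. Without single libraries the count of lncRNA genes called ran from 3 to 12, with 2 to 11 higher and 1 to 4 lower. All features called were 1419, against 654 with no filter, 2561 at an adjusted p below 0.05 and 509 to 1281 without single libraries. The 15 called genes kept their direction in every alternative in which they were tested. For the descriptions, EC against progenitors had 4 genes higher and 17 lower, against 7 and 9 under median-of-ratios scaling (median -0.51 against -0.065), 7 higher under quantile normalization and 9 higher with progenitor replicates 1 to 3 alone. EE against progenitors had 9 lower, against 17 with progenitor replicates 4 and 5 alone (median 1.27 against 0.63), and 9 to 14 without single libraries. The median for EE against EC was 1.23, against 1.49 with a pseudocount of 0.1, 0.92 under median-of-ratios scaling, 0.89 under quantile normalization, 1.56 for genes that share no exonic base and 1.04 to 1.46 without single libraries. Without single libraries the rule chose 43 to 49 genes. The causes were not tested.

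Deviations of same-numbered Sox100B-OE and Sox100B-RNAi libraries correlated at 0.36, 0.04 and 0.18, and those of differently numbered libraries at -0.31 to 0.13. Sox100B-OE replicates 1 and 3 correlated best with the Sox100B-RNAi library of the same number. Sox100B-OE replicate 2 correlated best with Sox100B-RNAi replicate 3 (0.07). Whether replicate numbers pair the libraries was not tested. With the replicate block 16 lncRNA genes and 1662 features were called, against 15 and 1419 without it. Depth limits genes such as CR44272 and CR44538 in Sox100B-OE, which rested on 10 or fewer implied reads per library.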

Other observations

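A further 31 lncRNA features were under 10 RPKM in every wild type group and at least 10 RPKM in a Sox100B group. Of these, 24 share exonic bases with another gene, and 9 were listed at 0 in all 11 wild type libraries. CR44145, which is among the 7 that share no exonic base, was 96.3, 46.7 and 24.2 RPKM in Sox100B-RNAi, 1.26, 0.86 and 0.95 RPKM in Sox100B-OE and at most 2.19 RPKM in wild type.

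Progenitor replicates 4 and 5 did not overlap replicates 1 to 3 for 23 of the 47 lncRNA genes (48.9%), 20 higher and 3 lower, against 40.3% of the protein-coding genes. CR44430 had the largest difference, with means of 0.72 RPKM in replicates 1 to 3 and 36.4 RPKM in replicates 4 and 5 (log2 difference 4.51), followed by CR44138 (3.54), CR44272 (2.65) and CR44209 (2.11). Sox100B-RNAi replicate 2 was the highest of its group for these genes, at 16.8, 268, 27.7 and 5.68 RPKM.

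The dosage compensation RNA roX1, which coats the X chromosome in males, did not meet the rule. It was 17.3 RPKM in replicate 3 of the libraries labelled EC and at most 2.20 RPKM in the other 16 libraries, and roX2 was 2.05 RPKM in that library and at most 0.35 RPKM elsewhere. The same library had the lowest CR40469 (112 RPKM) of all 17.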
